A study of Mus musculus with 12 samples.

Results

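The 10 genes described here belong to the Ifi200 family of mouse chromosome 1: Ifi202b, Ifi203, Ifi204, Ifi205, Ifi207, Ifi208, Ifi209, Ifi211, Ifi213 and Mndal, which are 10 of 27457 rows of the gene table. Ifi206 and Ifi214, of the same family, also have rows and are not among the 10. They were chosen by their counts summed over clusters and over tumors, strain by strain, in the same libraries. Their levels by cluster and by host strain are therefore given as a description, with no test. Only the effect of treatment was tested.

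The Ifi200 family, also called HIN-200 or PYHIN, encodes proteins that mostly pair a pyrin domain with one or more HIN domains that bind DNA. Interferons induce many of the genes, and family members take part in sensing DNA in the nucleus and cytosol and in control of the cell cycle. The mouse genes lie side by side as products of repeated duplication, and gene content and expression are known to differ between inbred strains. Ifi202b, whose product binds DNA and is known to hold back AIM2 inflammasome signaling, is known as a gene of low expression in C57BL/6 mice.

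The libraries came from tumors of MC38, a colon carcinoma line of C57BL/6J (B6) origin, grown under the skin of female mice aged 8–12 weeks from an injection of cultured cells. Hosts were C57BL/6J (6 tumors) or F1 offspring of C57BL/6J and a strain of the Collaborative Cross (CC), a panel of inbred lines bred from several founder strains. The CC parents were CC001/UncJ (8 tumors), CC002/UncJ (6), CC007/UncJ (4), CC036/UncJ (6), CC075/UncJ (6), CC079/TauUncJ (6) and CC080/TauUncJ (6), called here by the number alone. All F1 hosts carry 1 B6 copy of each chromosome beside the CC copy. Once the tumor measured 75–110 mm3, 200 µg of either anti-PD-1 antibody (aPD1, 29F.1A12) or its isotype control (2A3) was given once, and the tumor was taken 48 h later. Cells were sorted to 90% CD45+ and 10% CD45-, marked with hashtags, and pooled as 4 tumors a library in 12 libraries, so that a library held both treatments of a pair of hosts. The replicate was the tumor.

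The table held 93126 cells of 48 tumors in 27 clusters, with 53 to 3082 cells and 88816 to 17713491 unique molecular identifiers (UMIs, each marking 1 captured transcript) per tumor. Of these cells, 10176 (10.9%) carried a barcode sequence that also occurred in another library. From their markers, 9 clusters were named monocyte/macrophage (clusters 2, 4, 9, 15, 17, 19, 21, 26 and 27, with 55995 cells, called macrophages here) and 9 clusters T/NK (12021 cells). Cluster 5 (12064 cells) carried macrophage markers at macrophage levels, but immunoglobulin and hemoglobin genes led its largest folds, and it stayed unnamed. The study lists its subclusters 2, 5 and 26 as holding most of its macrophages with a high interferon gamma response. The main macrophage levels and tests leave cluster 5 out, and adding it was an alternative. The CC007 aPD1 tumor of pool 6 had fewer than 30 macrophages and entered no level or fit, which left 47 tumors for macrophages. Over the 200 genes outside chromosome 1 that varied most between strains, the macrophage profile of 47 of 47 tumors was nearest to the mean of its own labelled strain. Those genes were picked with the same labels, which favors the labelled strain. Isotype and aPD1 tumors never shared a hashtag, so hashtag and treatment cannot be told apart.

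In GRCm38 with the GENCODE vM21 annotation, the 10 genes lie between 173566283 and 174031810 on chromosome 1, a span of 465.5 kb. Ifi209 (173630917–173647928) and Ifi208 (173673675–173698395) lie on the plus strand. The other 8 lie on the minus strand: Ifi213 (173566283–173599274), Ifi207 (173723427–173741747), Ifi204 (173747293–173766943), Mndal (173849126–173942491), Ifi211 (173896345–173913046), Ifi203 (173920407–173942672), Ifi202b (173962568–173982744) and Ifi205 (174011998–174031810). The annotated Mndal locus spans all of Ifi211 and overlaps Ifi203 on the same strand. How reads that fit several of these 3 genes were counted was not tested.

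How far reads can tell these copies apart was measured on their longest coding transcripts, as the share of 90-base windows that also occur in a transcript of another gene. For Ifi202b the share was 0%, so its counts share no such window with any annotated gene. For Ifi207 it was 1.5% and for Ifi203 3.90%. At the other end, 59.0% of the Ifi211 windows and 42.7% of the Ifi205 windows were shared, mostly between these 2 genes. In the first 500 bases, the end that 5′ chemistry reads, the share was 72.7% for Ifi204 and 52.8% for Ifi211, against 0% for Ifi205. There it was 28.2% for Ifi213, 26.5% for Ifi208 and 22.1% for Ifi203, more than over the whole transcript. Levels of Ifi204 and Ifi211 are therefore less certain than those of Ifi202b, Ifi205 and Ifi207. Reads were aligned to the B6 reference genome, and how well transcripts of the CC copies align to it was not tested.

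RefSeq gives a start for 9 of the 10 genes (Ifi204 has no entry in the table used), with 11 starts in all on GRCm38.p6. The 250 bases before each start were searched on both strands for an interferon-stimulated response element in the short form GAAANNGAAA and for a gamma-activated site in the short form TTCNNNGAA. The first form was found before 8 of the 11 starts, in 7 of the 9 genes, and in 2.98% of 32851 promoters of that length. The second was found before 1 start, that of Ifi202b, and in 7.02% of all promoters. The upstream sequences of Ifi202b and of 3 genes that hold the first form are shown because these genes follow host strain in opposite or different ways, as described next. They read 5′ to 3′ on the gene's strand (all minus), end at the base before the start, and have the matches in capitals.

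Ifi202b, chr1:173982845-173983094, minus strand: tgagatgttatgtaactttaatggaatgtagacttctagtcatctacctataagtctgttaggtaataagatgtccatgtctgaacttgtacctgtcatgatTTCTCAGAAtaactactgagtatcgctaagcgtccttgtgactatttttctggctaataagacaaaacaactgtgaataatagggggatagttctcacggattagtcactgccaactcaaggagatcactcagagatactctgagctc
Ifi207, chr1:173741810-173742059, minus strand: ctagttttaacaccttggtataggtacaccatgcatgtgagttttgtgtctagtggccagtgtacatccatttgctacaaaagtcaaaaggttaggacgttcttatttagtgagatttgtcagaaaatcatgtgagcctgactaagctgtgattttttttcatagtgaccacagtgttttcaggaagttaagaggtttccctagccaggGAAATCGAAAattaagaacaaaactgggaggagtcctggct
Ifi211, chr1:173913047-173913296, minus strand: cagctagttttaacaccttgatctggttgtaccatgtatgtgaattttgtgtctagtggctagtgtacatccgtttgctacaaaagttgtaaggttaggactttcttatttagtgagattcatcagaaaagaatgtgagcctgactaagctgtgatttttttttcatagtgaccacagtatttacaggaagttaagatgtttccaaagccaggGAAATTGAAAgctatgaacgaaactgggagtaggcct
Ifi213, chr1:173599273-173599522, minus strand: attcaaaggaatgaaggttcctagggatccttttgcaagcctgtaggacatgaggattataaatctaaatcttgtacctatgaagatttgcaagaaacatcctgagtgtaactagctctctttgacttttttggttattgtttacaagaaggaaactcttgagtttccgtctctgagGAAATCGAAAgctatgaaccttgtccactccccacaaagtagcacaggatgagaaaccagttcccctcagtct

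The Ifi202b sequence holds the second form 148 bases before its start and no match to the first. The first form begins 41 bases before the start of Ifi207, 37 before that of Ifi211 and 73 before that of Ifi213. The Ifi207 and Ifi211 sequences are 86.4% identical in a global alignment of the 250 bases. Those of Ifi208 and Ifi213 are 93.2% identical, as are those before a start of Ifi203 and a start of Mndal. Matches in such copies are not separate finds, so the number of genes with the first form is not a number of independent cases. A match is only a stretch of letters in the B6 reference and says nothing of binding.

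Across clusters, the genes differed by cell type in 2 ways (levels in CPM, the counts summed over all tumors in a cluster and scaled to a total of 1000000). Cluster 21, a macrophage cluster led by Ifit3b, Ifit3, Cmpk2, Rsad2 and other interferon-stimulated genes, had the highest level of 9 of the 10 genes. Ifi203 stood at 604 CPM there against 122 CPM in cluster 2, the macrophage cluster with the most cells. Ifi208 stood at 138 CPM against 8.12 CPM, a ratio of 17.03, whereas the ratio was 2.92 for Ifi207 and between 4.23 and 7.40 for the other 8 genes. Cluster 4, led by Ace, Adgre4 and other monocyte genes, was second for Ifi202b, Ifi203, Ifi204, Ifi209, Ifi211 and Mndal, at 179 to 381 CPM. These levels pool all strains, Ifi202b was near 0 in some of them, and the median share of macrophages in cluster 21 ran from 4.55% in CC002 to 11.1% in CC080. The part of strain makeup in the order of clusters was not tested. Within CC080 alone, Ifi202b averaged 767 ± 87.9 CPM in cluster 21 and 198 ± 11.3 CPM in cluster 2 (n = 6). Ifi205 was the exception. Its highest level was 856 CPM in cluster 6, named cDC1 (the dendritic cells that cross-present antigen), followed by 492 CPM in cluster 21.

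T/NK clusters split the family. Ifi202b, Ifi204, Ifi205 and Ifi207 had medians of 1.81 to 3.58 CPM over the 9 T/NK clusters, and Ifi211 had 14.0 CPM. Ifi203 (median 143 CPM), Mndal (155 CPM), Ifi209 (62.0 CPM), Ifi208 (30.4 CPM) and Ifi213 (26.2 CPM) were present in T/NK cells, with their highest T/NK levels in cluster 7, which is led by Lef1 and Tcf7, genes of naive-like T cells. There Ifi203 reached 296 CPM and Ifi208 reached 104 CPM, its second-highest level of all clusters. The highest T/NK levels of Ifi202b (57.6 CPM), Ifi204 (82.9 CPM), Ifi205 (52.6 CPM), Ifi207 (142 CPM) and Ifi211 (89.2 CPM) were all in cluster 12. That cluster also carried 2866 CPM of Lyz2 and 804 CPM of C1qa, both macrophage genes, against 39.0 to 121 CPM of Lyz2 in the other 8 T/NK clusters. The part of this macrophage RNA in the cluster 12 levels was not tested.

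**Figure D1:**
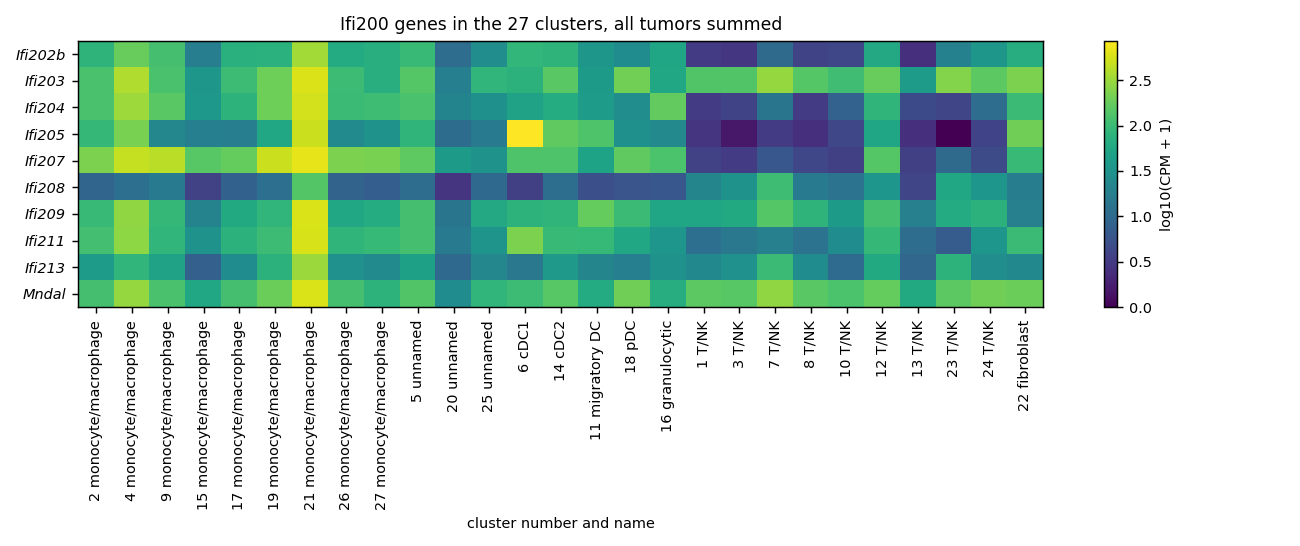
Level of each gene (rows) in each of the 27 clusters (columns, with the name given from markers), as log10(CPM + 1) of counts summed over all tumors. Cluster 21 has the highest level of 9 genes, Ifi205 is highest in cDC1 cluster 6 (856 CPM), and the rows of Ifi202b, Ifi204, Ifi205 and Ifi207 are darker over the other T/NK clusters than over cluster 12.

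By host strain, Ifi202b was close to absent from macrophages of B6, CC007 and CC075 hosts and plainly present in CC001, CC002, CC036 and CC080 hosts (CPM of the summed macrophage counts of each tumor, scaled by TMM factors). In the 6 B6 tumors the level ran from 0 to 1.88 CPM with a median of 0.136 CPM, from 16 counts among 27020011. In CC007 it was 0, 0.315 and 0.370 CPM, from 3 counts among 12824799 that include the small tumor of pool 6. In CC075 it ran from 1.29 to 4.37 CPM (median 2.50 CPM, n = 6). The ranges of B6 and CC075 overlapped.

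In CC001 hosts Ifi202b ran from 68.2 to 111 CPM (84.0 ± 14.3, mean ± SD, n = 8) and in CC002 hosts from 69.02 to 104 CPM (83.4 ± 12.3, n = 6), 2 strains whose ranges lay on top of each other. In CC036 hosts it ran from 173 to 278 CPM (222 ± 47.1, n = 6) and in CC080 hosts from 221 to 310 CPM (253 ± 30.5, n = 6), again with overlap. No tumor of CC036 or CC080 came near the range of CC001 and CC002. From the strain means, the log2 ratio to B6 on the CPM + 1 scale was 5.82 in CC001, 5.81 in CC002, 7.21 in CC036 and 7.40 in CC080, which understates the change because the B6 mean lies below 1 CPM.

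The 6 CC079 tumors did not share a level. Ifi202b was 187 CPM in the aPD1 tumor of pool 1 (1482 counts), 150 CPM in the isotype tumor of pool 5 (779 counts) and 104 CPM in the aPD1 tumor of pool 5 (656 counts). It was 6.07 CPM in the isotype tumor of pool 1 (58 counts), 1.06 CPM in the isotype tumor of pool 2 (9 counts) and 0.970 CPM in the aPD1 tumor of pool 2 (9 counts). Each of the 6 held at least 1235 macrophages, and the pair of pool 1 shared a library. All 6 profiles were nearest to CC079 in the check of labels above, which favors the labelled strain. The CC079 mean of 75.0 ± 83.5 CPM (n = 6) therefore describes no single tumor.

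In B6 tumors the lowest levels differed with the company in the library. In pools 6 and 7, which held only B6 and CC007 tumors, Ifi202b was at most 0.370 CPM. In pool 8, shared with CC036 tumors at 278 and 200 CPM, the B6 tumors had 0.905 and 1.88 CPM. In pools 9 to 11, shared with CC036 or CC080, the CC075 tumors had 1.29 to 4.37 CPM. No CC075 tumor was in another library, so strain and company cannot be told apart for them. Within pool 11, beside CC080 tumors at 310 and 235 CPM, the CC075 tumors had 1.41 CPM (isotype) and 4.28 CPM (aPD1). The 3 low CC079 tumors also shared libraries with tumors at 72.8 CPM or higher. The part of transcripts from other cells of the library in these values was not tested.

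**Figure D2:**
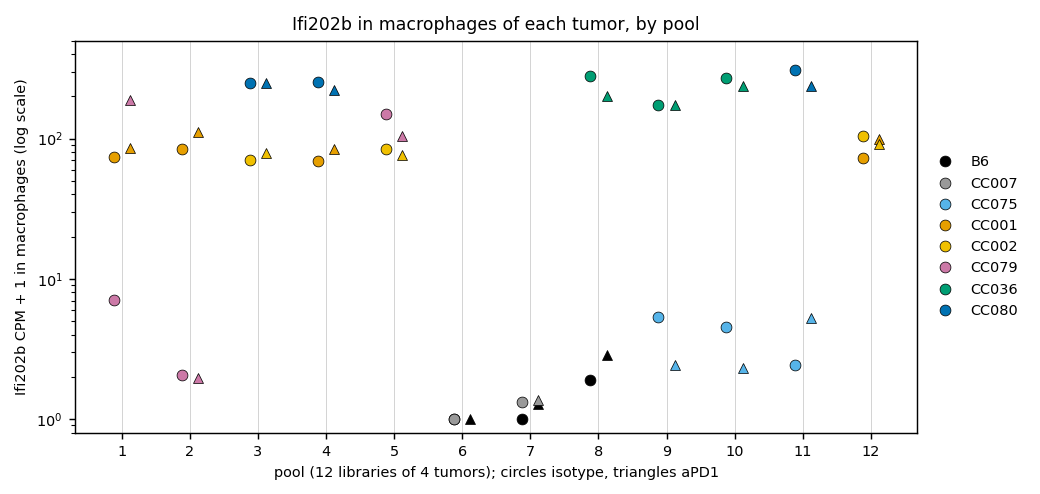
Ifi202b in macrophages of each tumor (CPM + 1, log axis) by pool, with color for host strain, circles for isotype and triangles for aPD1. CC036 and CC080 tumors stand at 173 to 310 CPM, CC001 and CC002 tumors at 68.2 to 111 CPM, B6, CC007 and CC075 tumors at most at 4.37 CPM, and CC079 tumors from 0.970 to 187 CPM.

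The same split between strains stood within single clusters. In cluster 21 Ifi202b averaged 824 CPM in CC036 (n = 5), 767 CPM in CC080 (n = 6), 320 CPM in CC001 (n = 7) and 301 CPM in CC002 (n = 5), against 3.06 CPM in CC075 (n = 6) and 1.31 CPM in B6 (n = 5). In cluster 26, a macrophage cluster led by Cxcl13 and Fcrls, the means were 167, 169, 54.8 and 52.8 CPM in the same 4 strains. In unnamed cluster 5 they were 223, 226, 81.2 and 72.7 CPM. T/NK cells had lower levels, with means of 42.4 ± 14.5 CPM in CC080, 23.8 ± 13.8 CPM in CC036 and 0 CPM in CC007, where 0 of 2442311 counts allow up to 1.23 CPM. Cluster 12, the T/NK cluster with macrophage RNA, held 4.45% of T/NK cells and 148 of the 394 T/NK counts of Ifi202b (37.6%). Without it, an alternative added after the data were seen, the summed T/NK level was 24.7 CPM in place of 36.5 CPM in CC080, 20.8 CPM in place of 22.5 CPM in CC036, 4.72 CPM in place of 8.69 CPM in CC001 and 4.79 CPM in place of 9.62 CPM in CC002.

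Most other genes ran the opposite way between strains. Strain means were mostly higher in B6, CC007 and CC075 hosts than in CC001, CC002, CC036 and CC079 hosts, and the place of CC080 depended on the gene. The median log2 ratio to B6 over the 10 genes was -0.02 in CC075, -0.24 in CC007, -0.38 in CC080, -0.66 in CC079, -0.72 in CC001, -0.76 in CC036 and -0.81 in CC002. Over all 12463 genes tested it lay between -0.03 and 0.03 in each strain. In CC001, CC002, CC036 and CC079, 9 of the 10 genes had a strain mean below that of B6, and the other was Ifi202b. CC007 was below B6 in 10 of 10 genes, CC080 in 8 and CC075 in 5.

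Ifi205, an interferon-inducible member, had the lowest ratio to B6. It ran from 125 to 222 CPM (median 148 CPM, n = 6) in B6, from 110 to 264 CPM (median 172 CPM, n = 6) in CC075, and was 129, 142 and 158 CPM in CC007. It ran from 28.9 to 55.7 CPM (median 40.3 CPM, n = 6) in CC002 and from 19.6 to 73.7 CPM (median 42.7 CPM, n = 6) in CC036. None of the CC002, CC036 and CC079 tumors (40.0 to 89.7 CPM) reached the lowest B6 tumor. CC080 tumors (71.3 to 128 CPM) and CC001 tumors (29.7 to 163 CPM) overlapped with B6. The log2 ratio to B6 was -1.98 in CC002, -1.82 in CC036, -1.30 in CC079, -1.27 in CC001 and -0.78 in CC080.

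Ifi213 was also high in B6 and CC075 and low in CC036, with 60.9 to 159 CPM (median 98.8 CPM) in B6, 60.4 to 123 CPM (median 96.3 CPM) in CC075 and 19.3 to 39.3 CPM (median 26.2 CPM) in CC036, n = 6 each. CC036 and B6 tumors did not overlap. Mndal, named for the human gene MNDA (myeloid cell nuclear differentiation antigen), had 168 to 288 CPM in B6, 181 to 313 CPM in CC075, 94.0 to 137 CPM in CC002 and 87.8 to 148 CPM in CC036. Its CC001, CC002 and CC036 tumors all lay below the B6 tumors. Ifi203 averaged 217 ± 51.9 CPM in B6 and 125 ± 14.1 CPM in CC002, and Ifi204 averaged 216 ± 43.1 CPM in B6, 219 ± 31.8 CPM in CC075 and 117 ± 33.4 CPM in CC002 (n = 6 each).

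Ifi211 had a pattern of its own. It averaged 201 ± 37.8 CPM in B6 and 195 ± 35.7 CPM in CC080, which overlapped, against 152 ± 21.9 CPM in CC075 and 78.1 ± 14.3 CPM in CC002 (n = 6 each). CC002, CC007 and CC079 tumors all lay below B6. Ifi209 averaged 178 ± 59.2 CPM in B6, 171 ± 57.01 CPM in CC075 and 90.5 ± 24.2 CPM in CC001 (n = 8). Ifi208 was lowest in CC036, with 4.24 to 12.98 CPM, and ran from 12.4 to 38.0 CPM in CC075. Ifi207 had the smallest ratio between its highest and lowest strain means, with 204 CPM in CC002 and 319 CPM in B6.

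**Figure D3:**
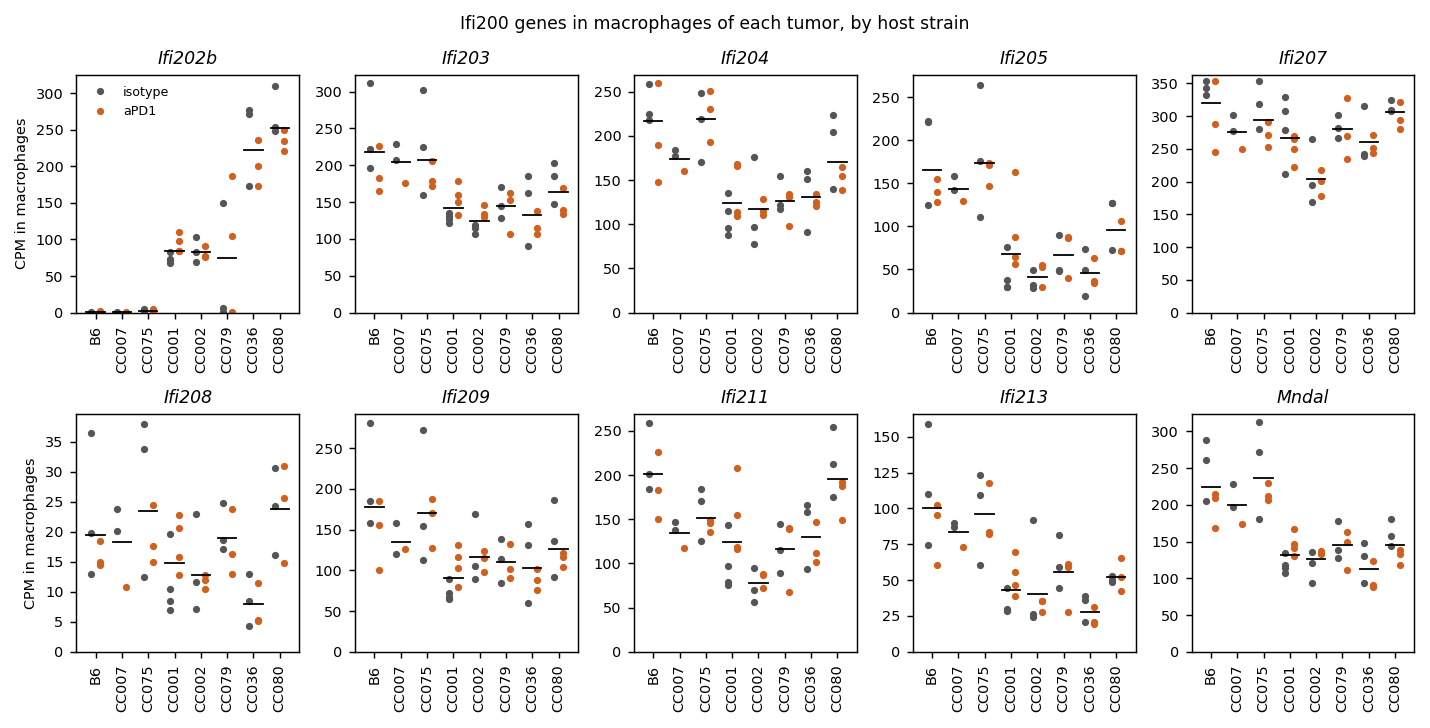
CPM of each gene in the macrophages of each of 47 tumors, by host strain, with isotype tumors in gray, aPD1 tumors in orange and a line at the strain mean. Ifi202b is near 0 in B6, CC007 and CC075 and split within CC079, while Ifi205, Ifi213 and Mndal are high in those 3 strains and low in CC002 and CC036.

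Counted as complete separation from the 6 B6 tumors, CC002 tumors lay below B6 in 4 of the 10 genes (Ifi203, Ifi205, Ifi211 and Mndal), where 0.947% of 12463 genes did, and above in 1 (Ifi202b), where 1.28% did. CC036 tumors lay below in 4 (Ifi205, Ifi208, Ifi213 and Mndal; background 1.08%) and above in 1 (Ifi202b; 1.27%). CC079 tumors lay below in 2 (Ifi205 and Ifi211; 4.81%) and above in 0 (5.01%). CC001 tumors lay below in 1 (Mndal; 0.505%) and above in 1 (Ifi202b; 1.52%). CC080 tumors lay below in 0 (0.666%) and above in 1 (Ifi202b; 1.21%). CC007 tumors, of which there were 3, lay below in 1 (Ifi211; 1.58%) and above in 0 (2.12%). CC075 tumors lay below in 0 (0.618%) and above in 0 (1.4%). As the genes were chosen on these levels, the counts describe them and test nothing.

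Ratios to B6 mostly compare different libraries. B6 shared a library only with CC007 and CC036, and CC001, CC002 and CC079 never shared one with B6, CC007 or CC075, so for these 3 strains the ratios and separation counts set tumors of different libraries side by side. They are linked to the others only through CC080. Within a library, the median log2 difference of Ifi205 from CC080 was -0.94 in CC001 and -1.15 in CC002, negative in 2 of 2 comparisons each, and 0.53 in CC075, positive in 1 of 2. For Ifi202b the same differences were -1.63, -1.75 and -6.25, negative in 2 of 2 comparisons each. CC036 and CC080 can be set beside B6 or CC075 within a library. Pools 8 to 11 paired B6 or CC075 with CC036 or CC080, which gives 8 comparisons of tumors of the same library and treatment. Ifi213 and Mndal were higher in the B6 or CC075 tumor in 8 of 8, by a median of 1.61 and 1.01 on the log2 scale. Ifi205 was higher in 7 of 8 (median 1.58) and Ifi202b in 0 of 8 (median -6.15). Ifi211 was higher in 5 of 8.

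Between strains lay 87.5% of the variance of log2(CPM + 1) over the 47 tumors for Ifi202b, 73.2% for Mndal, 70.5% for Ifi205 and 68.2% for Ifi213. The lowest shares were 49.1% for Ifi208 and 45.7% for Ifi209. The median over the 10 genes was 63.6%, against 33.3% over the 7866 genes of at least 10 CPM. The share of cluster 21 among macrophages also differed between strains. Its part in the levels was described by leaving cluster 21 out, as given below, and was not tested. Its median was 7.09% in B6, 6.40% in CC075, 4.55% in CC002, 5.74% in CC036 and 11.1% in CC080. The strain levels were therefore also taken in cluster 2 alone. There the log2 ratio to B6 was -1.95 for Ifi205 in CC036, -1.58 for Ifi213 in CC036 and 6.87 for Ifi202b in CC036, against -1.82, -1.81 and 7.21 over all macrophages. With cluster 21 left out of the macrophages, an alternative added after the data were seen, the same ratios were -1.79, -1.78 and 7.04. In CC080, the strain with the highest share of cluster 21, leaving it out moved Ifi205 from -0.78 to -1.04, Ifi213 from -0.94 to -1.15 and Ifi202b from 7.40 to 7.11.

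**Figure D4:**
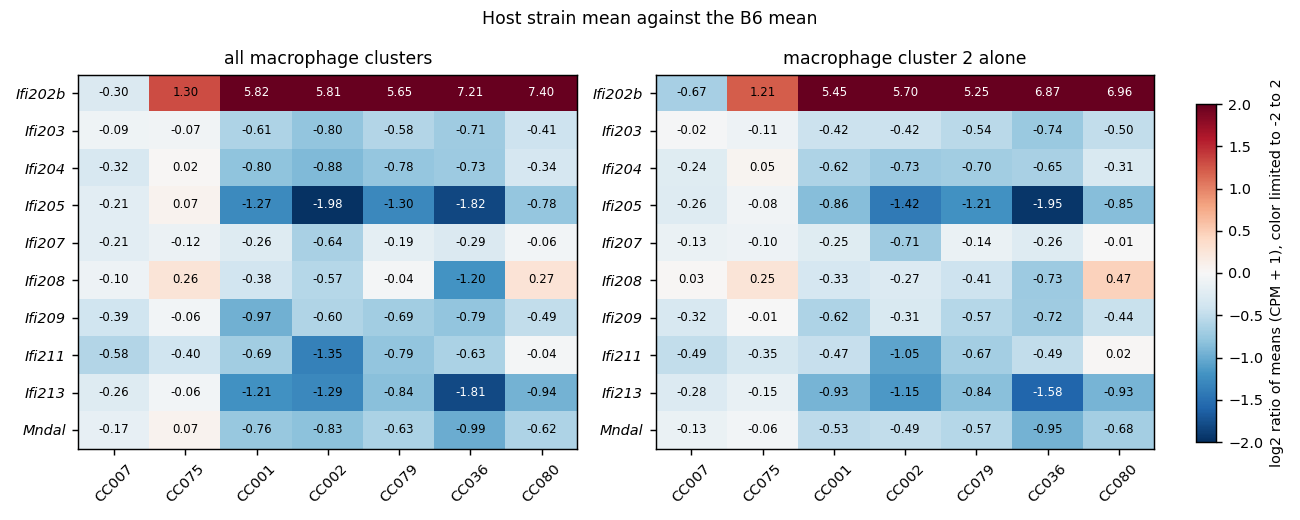
Log2 ratio of the strain mean to the B6 mean (CPM + 1) for each gene (rows) and strain (columns), in all macrophage clusters (left) and in cluster 2 alone (right), with color limited to -2 to 2. In both panels Ifi202b lies above B6 by 5.45 or more in CC001, CC002, CC036 and CC080, whose tumors did not overlap with those of B6, whereas the CC079 means (5.65 and 5.25) come from tumors whose range overlapped with that of B6, and Ifi205 and Ifi213 have their lowest ratios in CC002 and CC036.

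In T/NK cells Ifi213 averaged 62.8 ± 18.3 CPM in B6 and 54.6 ± 7.99 CPM in CC075, against 25.7 ± 5.82 CPM in CC036 and 25.8 ± 8.19 CPM in CC002 (n = 6 each). The B6 and CC036 ranges did not overlap in these cells either. The share of all genes with such separation in T/NK cells was not counted. CC079 averaged 52.0 ± 25.5 CPM (n = 5) here and 55.6 ± 17.9 CPM (n = 6) in macrophages, where B6 averaged 100.3 ± 34.0 CPM, and its range overlapped with that of B6 in both. Without cluster 12 the summed levels were 51.0 CPM in B6 and 26.1 CPM in CC036, against 53.9 and 25.4 CPM with it. Ifi203 differed less, with strain means from 127 CPM in CC002 to 212 CPM in CC079. Other members kept the macrophage order of strains only in part. In summed T/NK counts Mndal had 236 CPM in CC079, 195 CPM in B6 and 142 CPM in CC036. Ifi209 had 112, 84.9 and 70.3 CPM in the same strains. Ifi208 had 32.0 CPM in B6, against 42.8 CPM in CC080, 36.2 CPM in CC001 and 28.3 CPM in CC036.

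Likeness was measured over the 47 tumors as Pearson's r of log2(CPM + 1) in macrophages between each member and each of 7856 other genes. Ifi206, a PYHIN gene outside the 10, was first for Ifi203 (r = 0.87), Ifi205 (0.93), Ifi213 (0.95) and Mndal (0.94). Parp14 and Rnf213 were nearest to Ifi204 (0.90 and 0.89), Zbp1 to Ifi211 (0.83), Xaf1 to Ifi208 (0.84), Slfn1 to Ifi209 (0.86) and Rnf34 to Ifi207 (0.67). Ifi202b, with Ipo9 nearest (0.67), and Ifi207 had the lowest nearest matches. Ifi202b correlated negatively with the other 9 genes, from -0.74 with Mndal to -0.26 with Ifi211. Those 9 correlated positively with each other, from 0.44 for Ifi207 with Ifi209 to 0.92 for Ifi203 with Mndal. The tumors share libraries, strains and cluster makeup, so these values describe likeness only.

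The effect of aPD1 on the genes was tested per tumor with edgeR's quasi-likelihood test (treatment, with strain as a covariate, p-values adjusted by Benjamini-Hochberg over all genes tested). The question was whether a single dose changed the family within 48 h, and whether it did so differently in strains that the study classed as responders (CC001, CC002 and CC075) and non-responders (CC036, CC079 and CC080). The classes come from the study and not from the sample labels, and B6 and CC007 belong to neither. In macrophages of all strains (24 isotype and 23 aPD1 tumors), 0 of the 10 genes passed an adjusted p of 0.05, as did 0.0% of 12463 genes, and 1 member had an unadjusted p under 0.05, against 2.88% of all genes (359). That gene was Ifi207, at -0.13 ± 0.05 (log2 fold change ± SE, edgeR adjusted p = 1.00), higher with aPD1 in 9 of 23 pairs of a pool.

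In responder strains (10 isotype and 10 aPD1 tumors), 0 of 10 members passed in macrophages, against 0.0% of 11555 genes, and 9 of 10 had a positive estimate. Of all genes, 50.2% had a positive estimate. Ifi205 had a median of 43.2 CPM in isotype tumors (28.9 to 264 CPM) and 76.0 CPM in aPD1 tumors (29.8 to 173 CPM), which overlapped, with a log2 fold change of 0.54 ± 0.26 (edgeR adjusted p = 0.44) and a higher level in 7 of 10 pairs. Ifi211 had 0.27 ± 0.15, Ifi213 0.26 ± 0.20 and Ifi204 0.22 ± 0.13. No member had an unadjusted p under 0.05, against 11.8% of all genes tested. DESeq2 called 0 of 10, against 0.113% of all genes (13 of 11555).

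In non-responder strains (9 and 9 tumors), 0 of 10 members passed, against 0.0% of 11642 genes, and 9 of 10 estimates were negative. Of all genes, 47.9% had a positive estimate. An unadjusted p under 0.05 was found for 1 member, Mndal, and for 1.41% of all genes (164). Mndal had 124 ± 25.3 CPM in aPD1 and 144 ± 26.8 CPM in isotype tumors and a log2 fold change of -0.24 ± 0.11 (edgeR adjusted p = 1.00, unadjusted p = 0.0359), with a higher level in 1 of 9 pairs. The others ranged from -0.25 ± 0.17 for Ifi209 to 0.13 ± 0.67 for Ifi202b, whose SE was 0.13 without CC079, at an estimate of -0.26.

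The difference between the classes (treatment by class, 19 isotype and 19 aPD1 tumors) passed for 0 of 10 members, against 0.0% of 12025 genes. A positive estimate stands for a higher aPD1 effect in responder strains. Class belongs to the host strain, and the fit held no term for aPD1 effects that differ between strains of a class. Its p-values therefore measure the spread between tumors and not between strains. The estimate was positive for 9 of 10 members and for 50.5% of all genes, with a median of 0.38 over members and 0.0040 over all genes. It was 0.36 ± 0.15 for Mndal (unadjusted p = 0.0216, edgeR adjusted p = 0.45) and 0.40 ± 0.18 for Ifi204 (unadjusted p = 0.0352, adjusted p = 0.47). It was 0.64 ± 0.37 for Ifi205, 0.0056 ± 0.73 for Ifi202b and -0.08 ± 0.12 for Ifi207. The 2 members with an unadjusted p under 0.05 stand beside 10.3% of all genes. DESeq2 called 0 of 10, against 0.0416% of all genes.

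By strain, the positive responder estimates were not shared alike. Ifi205 was higher with aPD1 in 7 of 10 responder pairs, which were 4 of 4 in CC001, 2 of 3 in CC002 and 1 of 3 in CC075. In the 4 CC001 pairs it went from 29.7 to 56.6 CPM (pool 1), from 75.5 to 163 CPM (pool 2), from 37.5 to 64.4 CPM (pool 4) and from 29.99 to 87.5 CPM (pool 12). The aPD1 tumor was higher in 4 of 4 CC001 pairs for every member except Ifi207 (1 of 4). In CC075 it was higher in 1 of 3 pairs for each of the 10 members. As the members other than Ifi202b correlated positively with each other over the tumors, these counts by member are not separate results. The share of all genes with such pairs was not counted. The share of cluster 21 among CC075 macrophages was 16.6% with isotype and 5.16% with aPD1 in pool 9, 15.8% and 4.99% in pool 10, and 5.36% and 7.44% in pool 11. Among CC001 macrophages it was 3.30% with isotype and 6.44% with aPD1 in pool 1, 8.71% and 6.00% in pool 2, 5.99% and 6.80% in pool 4, and 5.32% and 10.3% in pool 12. The part of this share in the levels of either strain was not tested. With cluster 21 left out, 0 of 10 members passed in the responder strains together, against 0 of 11469 genes. In cluster 2 alone, the aPD1 tumor was higher in 3 of 3 CC075 pairs for Ifi204, Ifi209, Ifi211 and Ifi213. Without CC001 the responder estimate turned below 0 for Ifi202b, Ifi203, Ifi208, Ifi209, Ifi213 and Mndal.

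Macrophage cluster 2 alone gave more calls. This cluster is led by Cxcl2, Il1b and other inflammatory genes, and leaving the other macrophage clusters out was among the alternatives set for these tests. The study lists its subcluster 2 among those that hold most macrophages with a high interferon gamma response. In responder strains (9 isotype and 10 aPD1 tumors), 4 of 10 members rose with aPD1 at an adjusted p under 0.05, against 5.2% of 9511 genes. Ifi213 went from 31.7 ± 16.5 to 49.99 ± 17.9 CPM, a log2 fold change of 0.73 ± 0.17 (edgeR adjusted p = 0.0172). Ifi211 went from 82.0 ± 28.5 to 114 ± 28.9 CPM (0.54 ± 0.14, adjusted p = 0.0234), Ifi209 from 80.1 ± 25.5 to 113 ± 25.1 CPM (0.48 ± 0.11, adjusted p = 0.0104) and Ifi204 from 102 ± 31.7 to 133 ± 40.2 CPM (0.41 ± 0.09, adjusted p = 0.0113). All 4 were higher in 9 of 9 pairs, and the arms overlapped for each. The pair absent here was that of CC002 in pool 12, whose isotype tumor held 93 macrophages. Over all macrophages that pair fell with aPD1 for all 4 genes. Ifi213 went from 92.1 to 35.8 CPM, Ifi209 from 169.8 to 124.2, Ifi204 from 175.6 to 128.7 and Ifi211 from 94.98 to 88.3 CPM. For each, 6 or 7 of 10 responder pairs rose there. Over all macrophages without this tumor (at least 100 cells), 0 of 10 members passed. The part of its absence in the cluster 2 calls was not tested. Ifi205 (0.70 ± 0.26, adjusted p = 0.13) and Ifi202b (0.45 ± 0.15, adjusted p = 0.0770) did not pass. In non-responder strains 0 of 10 passed in this cluster, as did 0.0% of 9560 genes. The test of the difference between classes passed for 1 of 10, Ifi209 (0.57 ± 0.15, edgeR adjusted p = 0.0474), against 0.894% of 9960 genes. Here too the p-value measures the spread between tumors and not between the strains of a class.

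**Figure D5:**
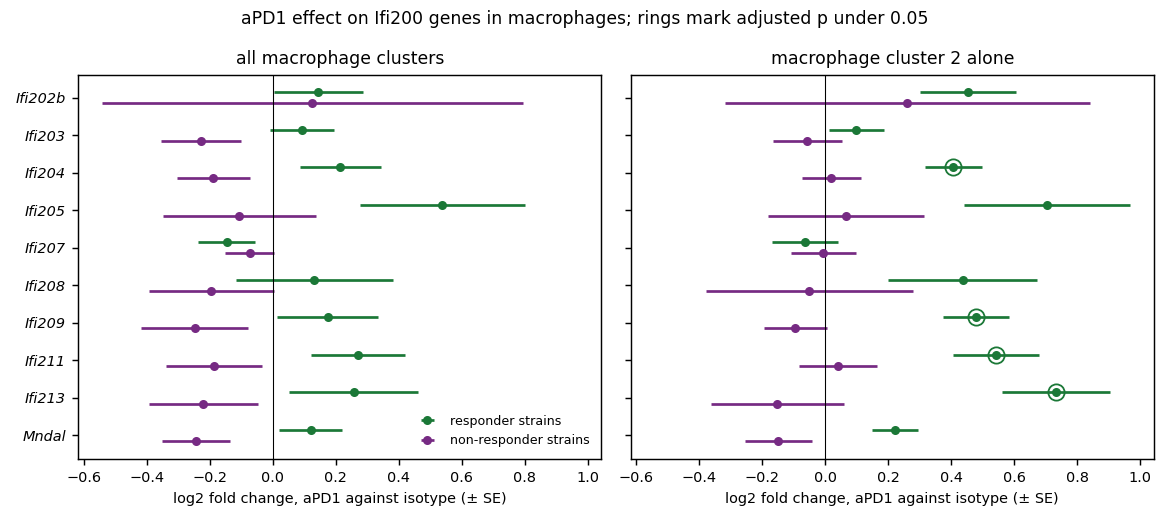
Log2 fold change of aPD1 against isotype with its SE for each gene in responder (green, 10 and 10 tumors) and non-responder strains (purple, 9 and 9 tumors), in all macrophage clusters (left) and in cluster 2 alone (right, 9 isotype and 10 aPD1 responder tumors). No gene passes an adjusted p of 0.05 on the left, and Ifi204, Ifi209, Ifi211 and Ifi213 pass on the right in responder strains (rings).

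No gene of the lists of related genes passed an adjusted p of 0.05 for aPD1 in the edgeR fits over all macrophage clusters. The lists were not counted with DESeq2 or in cluster 2 alone. Of 15 genes induced by interferon gamma (among them Cxcl9, Cd274 and Gbp4), 0 passed in responder strains, but 15 of 15 had a positive estimate and 14 an unadjusted p under 0.05, with a median log2 fold change of 0.58. Over all 11555 genes, 50.2% had a positive estimate and 11.8% an unadjusted p under 0.05. Gbp4, an interferon-inducible GTPase, had 0.91 ± 0.27 and Cd274, which encodes PD-L1, 0.90 ± 0.27 (edgeR adjusted p = 0.32 for both). Of 16 type I interferon-stimulated genes tested, 0 passed, 13 had a positive estimate and the median was 0.15, beside 0.16 for the Ifi200 genes. Its ends were Oasl1 at 0.32 ± 0.20 and Oasl2 at 0.31 ± 0.15, and Cmpk2 at -0.25 ± 0.25 and Ifit3 at -0.12 ± 0.22. Of 12 genes of cytosolic nucleic acid sensing tested, 0 passed and 8 had a positive estimate, with Zbp1 at 0.38 ± 0.18 and Ifih1 at 0.31 ± 0.13, which both sense nucleic acids, at one end and Cgas at -0.15 ± 0.13 and Mavs at -0.08 ± 0.12 at the other. Of 3 other PYHIN genes tested, 0 passed, with Ifi206 at 0.32 ± 0.16 and Ifi214 at 0.22 ± 0.23. Of 2 tested genes beside the cluster, 0 passed, and Slamf8 had 0.68 ± 0.20. In non-responder strains 0 genes of any list passed, and the medians lay between -0.24 and -0.07.

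In T/NK cells of all strains (24 isotype and 22 aPD1 tumors), 9 of the 10 members were abundant enough to test and 0 passed, against 0.0% of 8379 genes, with 0 at an unadjusted p under 0.05. Ifi205 was too low to test. Cluster 12 held 78.0% of the T/NK counts of Ifi207 and 54.6% of those of Ifi204, and its part in their estimates was not tested. DESeq2 called 0 members here, in all strains and in non-responder strains, as it did 0.0% of all genes in each. The estimates had a median of 0.06 and lay between -0.06 for Mndal and 0.32 ± 0.23 for Ifi204.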

How the data were processed

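Single-cell RNA-seq (10x Genomics 5′ chemistry) was analysed from 48 tumors. The authors demultiplexed hashtagged libraries, aligned reads with Cell Ranger to GRCm38 (mm10), removed cells rich in mitochondrial or ribosomal reads and clustered with Seurat 5.0.1. They deposited whole-number UMI counts per gene and cell with cluster numbers. For these counts the sources used here describe no handling of reads of CC alleles or of reads shared by paralogs. The 10 genes and the gene lists were chosen with earlier results of these data known.

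Clusters were named from markers. Counts were summed per tumor over macrophage or T/NK clusters, with at least 30 cells. Treatment was tested with edgeR 4.0.16 in R 4.3.3 (TMM, filterByExpr, robust quasi-likelihood fit with strain as a covariate), and p-values were adjusted by Benjamini-Hochberg over all genes tested. Only tumors of the labelled strains entered each fit. The scripts were tested on simulated data. Alternatives were library size alone, DESeq2 1.42.0, no filter, a block for the pair of tumors of a strain in a pool, each strain left out, 100 cells, pools 1 to 6 or 7 to 12 alone, cluster 2 alone, and, added after the data were seen, cluster 5 added, cluster 21 left out and, for T/NK levels, cluster 12 left out. A single animal identifier stands on 2 CC080 tumors (isotype of pool 3, aPD1 of pool 4), which were left out in another alternative. The pool and strain of a pair come from the labels. All members are named, and from each list the genes with the 2 largest changes in each direction. Levels are CPM with TMM factors by tumor and plain CPM by cluster. Total counts of 88816 to 17713491 UMIs per tumor set the precision, and a count of 0 was given the level of 3 counts as its limit, for counting error only. The treatment of doublets is not given in the sources used here, and no caller was run. Sequences and starts are from RefSeq (GRCm38.p6) and coordinates from GENCODE vM21. Scripts used Python 3.11.15 and Biopython 1.88.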

Additional observations from a re-analysis of the deposited data

Results flagged for a closer look

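In 6 of 70 groups of tumors of a strain, a tumor stood apart from the rest by Dixon's criterion at the 95% level, which chance alone gives in about 1 group in 20. Ifi202b was 310 CPM in the CC080 isotype tumor of pool 11. Ifi205 was 163 CPM in the CC001 aPD1 tumor of pool 2. Ifi208 was 36.5 CPM in the B6 isotype tumor of pool 6. In the CC002 isotype tumor of pool 12, which held 93 macrophages, Ifi208 was 23.0 CPM and Ifi213 was 92.1 CPM. Mndal was 94.0 CPM in the CC002 isotype tumor of pool 3, below the other CC002 tumors.

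The aPD1 effect had opposite signs in every pair of a pool between CC001 (4 pairs, all higher with aPD1) and another strain (3 pairs, all lower) for 3 genes. The difference of the mean log2 effects was 0.89 for Ifi208 against CC079, 1.06 for Ifi213 against CC036, 0.59 for Mndal against CC036 and 0.60 for Mndal against CC080. The difference was not tested. These cases were picked from the 10 genes and several strains, and no rate for chance or for all genes was counted. Ifi213 and Mndal also rose and fell together over the tumors (r = 0.92).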

How the results depend on the processing

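The number of members past an adjusted p of 0.05 was 0 in all 5 comparisons and stayed there in 78 of 80 values over the alternatives, among them the pair as a replicate block (0 in all 5). The other 2 values were from cluster 2 alone, with 4 members in responder strains and 1 in the difference between classes; the cause was not tested. Of 469 effects of single members, 437 kept sign and side of the threshold, 5 newly passed it and 27 changed sign; none of the last had passed, and the cause was not tested.

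In responder strains, leaving out each strain in turn gave -0.081 to 0.23 for Ifi202b, -0.032 to 0.25 for Ifi203, -0.27 to 0.46 for Ifi208, -0.085 to 0.31 for Ifi209, -0.040 to 0.40 for Ifi213 and -0.011 to 0.27 for Mndal, lowest without CC001 in each. Pools 7 to 12 alone gave -0.00092 for Ifi202b, -0.057 for Ifi203, -0.19 for Ifi208, -0.024 for Ifi213 and -0.044 for Mndal. In non-responder strains, leaving out each strain gave -0.26 (without CC079) to 0.33 for Ifi202b and -0.26 to 0.054 (without CC080) for Ifi205. There Ifi205 was 0.041 in pools 1 to 6, Ifi202b was -0.31 in pools 7 to 12, and cluster 2 alone gave 0.020 for Ifi204, 0.066 for Ifi205 and 0.041 for Ifi211. For the difference between classes, Ifi202b was -0.043 with library size alone, -0.11 with DESeq2, -0.0094 with no filter, -0.033 without the 2 tumors that share an animal identifier and -0.32 in pools 1 to 6. Leaving out each strain gave -0.22 to 0.38 for Ifi202b, which was also below 0 without CC036 (-0.21) and CC080 (-0.18), and -0.061 to 0.65 for Ifi208.

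Of 490 recomputed strain ratios to B6, 452 moved by less than the spread between tumors, 38 moved by more and 0 of the ratios whose tumors did not overlap with B6 changed sign. Depth limits Ifi202b in B6, CC007 and CC075 tumors, where 0 to 19 counts stand behind each level, and T/NK levels of Ifi204, Ifi205 and Ifi207. Reads shared between paralogs limit Ifi204 and Ifi211, and to a lesser degree Ifi213, Ifi208 and Ifi203.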
